A study of Homo sapiens with 10 samples.

Results

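The BCL2 family regulators of apoptosis described here are BCL2L1, MCL1, BAX, BAK1, BBC3, PMAIP1, BCL2L11, BID, BIK and BMF. They were taken by symbol, and all 10 were found among the 28281 gene symbols of both count tables. In H1944 cells labelled APE1 knockout, BAX, BBC3, BCL2L1, BAK1 and BCL2L11 rose and BIK and PMAIP1 fell. By DESeq2 BAK1 and BCL2L11 did not pass, and with all 10 libraries in 1 fit only BAX and BIK passed. In A549 cells labelled APE1 knockout no member passed the test, and BBC3 was the 1 member whose KO libraries all lay above all WT libraries. Of all tested genes, 67.1% passed in H1944 (33.2% higher, 33.9% lower) and 0.00633% in A549, and in A549 10.7% had KO and WT libraries that did not overlap (6.11% above WT, 4.6% below).

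Both lines are human lung adenocarcinoma cultures, and messenger RNA was sequenced after poly(A) selection. The groups were APE1 knockout (KO) A549 with 3 libraries, wild-type (WT) A549 with 3, KO H1944 with 2 and WT H1944 with 2. APE1, the product of APEX1, is the main endonuclease of base excision repair. The labels name no drug or other agent for any group. How the knockout was made, and whether the KO libraries of a line come from 1 clone, several clones or separate cultures, is not given in the sources used here. Each p-value therefore speaks only of how much these libraries scattered, and that scatter may be technical.

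BCL2 family proteins decide whether the outer membrane of the mitochondrion is opened, the step that commits a cell to apoptosis. BCL2L1 (encoding BCL-xL) and MCL1 are guardians that hold the killers in check, while BAX and BAK1 are effectors that form the pores. The BH3-only proteins, among them PUMA (BBC3), NOXA (PMAIP1), BIM (BCL2L11), BID, BIK and BMF, sense stress and either block guardians or activate effectors. Much of the control of this family lies in protein turnover, binding and alternative splicing, which gene counts do not show; BCL2L1 and MCL1, for example, have short splice forms that favour death.

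Counts from whole cultures cannot tell fewer cells with a transcript from less of it per cell. Total counts ran from 18314224 to 30219850 per library. APEX1 measured 62.9, 60.1 and 107.8 CPM (counts brought to a common library size by the TMM method within each line) in A549 KO 65, KO 16 and KO 66, against 167, 254 and 237 CPM in A549 WT 1, 2 and 3. It measured 87.0 and 87.6 CPM in H1944 KO 1 and 2, against 244 and 243 CPM in H1944 WT 1 and 2. Its fall passed in H1944 (edgeR adjusted p 6.43e-19, log2 fold change -1.48, SE 0.037). In A549 it did not pass (edgeR adjusted p 0.521, log2 fold change -1.51, SE 0.30), and APEX1 transcript was counted in each KO library of both lines. The KO libraries of A549 carry numbers and no genotype in the tables, and were placed by elimination. The share of ribosomal RNA was 0.337% in A549 KO 65 and 0.284% in A549 WT 1. It was 14.2% in KO 16 and 6.45% to 7.19% in KO 66, WT 2 and WT 3. A549 values are therefore also given within the set of KO 65 and WT 1 and the set of the other 4 libraries. The larger set is not uniform. The chi-square of count differences per gene was 1.90 between WT 2 and WT 3 and 135 between KO 16 and KO 66. Values of KO 16 against WT 2 and WT 3 may thus hold differences between libraries as well as genotype. Of the markers of the labelled cell type, KRT8 and KRT18 were at 3281 CPM or more in each library, while the alveolar marker NKX2-1 was at 0.136 CPM or less and SFTPC at 0.264 CPM or less. EPCAM averaged 0.949 CPM in H1944 KO and 70.2 CPM in H1944 WT, and CDH1 averaged 8.02 and 211 CPM. The 6 epithelial markers summed to 17500 to 17898 CPM in H1944 KO and 9788 to 9942 CPM in H1944 WT. Most of this was KRT8, averaging 9748 and 5544 CPM, and KRT18, averaging 7936 and 4032 CPM. KRT7 averaged 6.61 CPM in H1944 KO and 5.80 CPM in H1944 WT, and KRT19 0.0679 and 1.38 CPM. Epithelial markers above 1 CPM numbered 4 in H1944 KO and 6 in H1944 WT. The 6 lung lineage markers summed to 2.35 to 2.64 CPM in H1944 KO and 32.3 to 37.3 CPM in H1944 WT, with NKX2-1 at 0 in all H1944 libraries. The part of these shifts in the results below was not tested. Summed fibroblast, leukocyte and endothelial markers stayed at or below 16.9, 8.35 and 2.49 CPM in every library.

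The title of the study names G-quadruplexes, 4-stranded folds of guanine-rich DNA, so stretches before RefSeq starts of the members were read for letters that could form one. RefSeq sequences (GRCh38.p14) were given for 8 of the 10 members, in 14 windows of 250 bases upstream of a start; MCL1 and BIK had no entry. The pattern was 4 runs of at least 3 G with loops of 1 to 7 bases (N), on both strands. It was found for BAK1, PMAIP1, BCL2L11 and BID, in 7 of the 14 windows, against 23.5% of all 35116 windows of the same length, and 5 of the 14 windows belong to BID, whose windows overlap each other. Those of BAK1, PMAIP1 and BCL2L11 are shown because these genes changed in H1944 in different directions, as described below. The stretch of BCL2L11 precedes a RefSeq start but lies inside the GENCODE span of the gene (111119378 to 111168447). Capitals mark the pattern, and each is written 5′ to 3′ on the strand of the gene:
BAK1, chr6:33580328-33580395, minus strand: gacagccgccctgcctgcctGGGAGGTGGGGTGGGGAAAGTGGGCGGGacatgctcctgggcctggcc
PMAIP1, chr18:59899869-59899945, plus strand: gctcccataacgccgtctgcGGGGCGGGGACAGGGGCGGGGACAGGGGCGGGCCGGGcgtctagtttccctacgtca
BCL2L11, chr2:111120802-111120866, plus strand: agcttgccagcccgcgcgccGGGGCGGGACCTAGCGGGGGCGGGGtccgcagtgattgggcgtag
A match describes letters and does not show a fold. The 4 members with the pattern were 2 higher, 1 lower and 1 not called in H1944 KO. Of all tested H1944 genes 33.2% were higher and 33.9% lower. Of the members with windows but no pattern, BCL2L1, BAX and BBC3 were higher and BMF was not called. The GC box GGGCGG was found in 9 of the 14 windows, 4 of them of BID, against 42.6% of all windows.

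**Figure D1:**
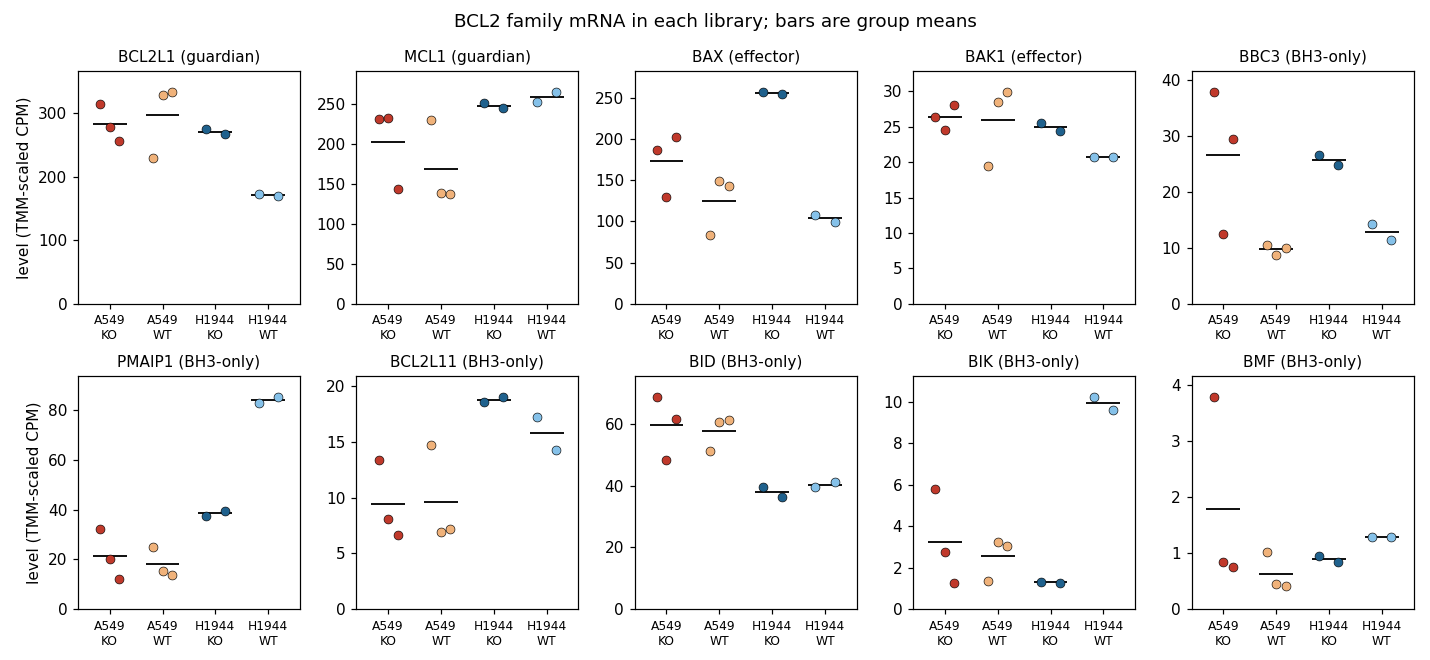
Each panel shows 1 gene, with TMM-scaled CPM on a linear axis from 0 and 1 point per library; bars are group means of 3 A549 KO, 3 A549 WT, 2 H1944 KO and 2 H1944 WT libraries. H1944 libraries of a group lie close together, while A549 libraries of a group spread widely, with BAX between 83.0 and 149 CPM in A549 WT.

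The guardians went separate ways in H1944. BCL2L1 (chromosome 20, 31664452 to 31723989, minus strand, GRCh38) measured 274 and 267 CPM in H1944 KO and 173 and 169.6 CPM in H1944 WT. The groups did not overlap, with a 1.58-fold rise (log2 fold change 0.66, SE 0.036, edgeR adjusted p 4.89e-13). MCL1 (chromosome 1, 150574551 to 150579738, minus strand) measured 251 and 244 CPM in H1944 KO and 252 and 265 CPM in H1944 WT, a difference that did not pass (log2 fold change -0.06, SE 0.036, edgeR adjusted p 0.136). MCL1 passed only without H1944 WT 1, at a log2 fold change of -0.10 (edgeR adjusted p 0.0119).

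In A549 the guardians overlapped between genotypes. BCL2L1 had 314, 278 and 256 CPM in KO 65, KO 16 and KO 66, and 229 to 333 CPM in WT (log2 fold change -0.07, SE 0.21, edgeR adjusted p 0.995). MCL1 had 231, 233 and 143 CPM in the same KO libraries and 229.9, 138 and 137 CPM in WT 1, 2 and 3 (log2 fold change 0.26, SE 0.30, edgeR adjusted p 0.995). KO 65 and WT 1, which form the smaller set, had nearly the same MCL1 level, and WT 1 was 0.74 above WT 2 and WT 3 on the log2 scale. An antisense gene, ABALON, shares 1224 exonic bases with BCL2L1 on the opposite strand; it had 2862 and 3106 counts in H1944 KO and 1631 and 1411 in H1944 WT. The strand setting of the counting is not given, so reads of these overlapping genes cannot be told apart.

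Of the effectors, BAX had the largest rise among the 10 members in H1944. BAX (chromosome 19, 48954815 to 48961798, plus strand) measured 257 and 255 CPM in H1944 KO, against 108 and 99.8 CPM in H1944 WT. The groups were well apart, with a 2.46-fold rise (log2 fold change 1.30, SE 0.041, edgeR adjusted p 3.17e-17). BAK1, the second pore former (chromosome 6, 33572547 to 33580293, minus strand), measured 25.6 and 24.4 CPM in H1944 KO and 20.8 and 20.7 CPM in H1944 WT. This was a small rise (log2 fold change 0.27, SE 0.080, edgeR adjusted p 0.00567), which did not pass by DESeq2 (adjusted p 0.0524) or without H1944 KO 1 (edgeR adjusted p 0.0584).

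In A549 BAX measured 187, 130.1 and 203 CPM in KO 65, KO 16 and KO 66, against 83.0, 149 and 143 CPM in WT 1, 2 and 3. KO 16 lay below WT 2 and WT 3, so the genotypes overlapped (log2 fold change 0.47, SE 0.29, edgeR adjusted p 0.995). Within the sets, KO 65 stood 1.17 above WT 1 in log2 BAX, while KO 16 and KO 66 stood at -0.16 and 0.48 against the mean of WT 2 and WT 3. BAK1 measured 24.5 to 28.1 CPM in A549 KO and 19.5 to 29.9 CPM in A549 WT. Its log2 fold change of 0.02 (SE 0.22, edgeR adjusted p 0.995) became -0.02 with DESeq2 size factors.

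The BH3-only genes split in H1944, with BBC3 and BCL2L11 higher and BIK and PMAIP1 lower. BBC3 (chromosome 19, 47220822 to 47232766, minus strand) measured 26.6 and 24.8 CPM in H1944 KO and 14.3 and 11.4 CPM in H1944 WT. Both KO libraries lay above both WT libraries (log2 fold change 1.00, SE 0.10, edgeR adjusted p 1.35e-08). BCL2L11 (chromosome 2, 111119378 to 111168447, plus strand) measured 18.6 and 19.0 CPM in H1944 KO and 17.3 and 14.3 CPM in H1944 WT. Its rise was 1.19-fold (log2 fold change 0.25, SE 0.10, edgeR adjusted p 0.0309), the highest adjusted p of the 7 calls. BCL2L11 did not pass by DESeq2 (adjusted p 0.138) or without KO 1 (0.0514), KO 2 (0.0864) or WT 2 (0.346) of H1944 by edgeR. BCL2L11 also shares 727 exonic bases with MIR4435-2HG on the opposite strand, which had 2808 and 2756 counts in H1944 KO and 1125 and 1153 in H1944 WT.

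BIK, a BH3-only protein of the endoplasmic reticulum (chromosome 22, 43110748 to 43129712, plus strand), had the largest change of all members. It measured 1.30 and 1.27 CPM in H1944 KO and 10.2 and 9.63 CPM in H1944 WT, from 37 and 38 counts against 231 and 202. The level was 7.69-fold lower in KO (log2 fold change -2.94, SE 0.19, edgeR adjusted p 1.2e-11). PMAIP1 (chromosome 18, 59899948 to 59904306, plus strand), whose protein binds MCL1, measured 37.5 and 39.6 CPM in H1944 KO and 82.8 and 85.2 CPM in H1944 WT. It was 2.18-fold lower in KO (log2 fold change -1.12, SE 0.052, edgeR adjusted p 3.17e-14). BBC3 and PMAIP1 thus moved in opposite directions in the same H1944 libraries.

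BID and BMF did not pass in H1944. BID, which links death receptors to the mitochondrion once caspase-8 has cut it (chromosome 22, 17734138 to 17774770, minus strand), measured 39.6 and 36.2 CPM in H1944 KO and 39.5 and 41.1 CPM in H1944 WT (log2 fold change -0.09, SE 0.065, edgeR adjusted p 0.232). BMF, which is released from the cytoskeleton on stress (chromosome 15, 40087890 to 40108892, minus strand), measured 0.951 and 0.838 CPM in H1944 KO and 1.28 and 1.29 CPM in H1944 WT. Only 25 to 29 counts per library stood behind BMF, and its difference did not pass (log2 fold change -0.52, SE 0.36, edgeR adjusted p 0.205).

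In A549 the BH3-only gene that stood out was BBC3. It measured 37.9, 12.4 and 29.4 CPM in KO 65, KO 16 and KO 66, against 10.6, 8.77 and 10.0 CPM in WT 1, 2 and 3. Every KO library was above every WT library, but KO 16 only just (log2 fold change 1.44, SE 0.40), and the edgeR adjusted p was 0.673. Within the sets, KO 65 stood 1.84 above WT 1 in log2 BBC3, and KO 16 and KO 66 stood 0.40 and 1.65 above the mean of WT 2 and WT 3. BMF measured 3.77, 0.844 and 0.755 CPM in KO 65, KO 16 and KO 66, and 1.02, 0.441 and 0.408 CPM in WT 1, 2 and 3. Each KO library was above the WT libraries of its own set, by 1.89, 0.99 and 0.83 on the log2 scale, though the groups overlapped (log2 fold change 1.52, SE 0.76, edgeR adjusted p 0.941). These BMF values rest on 9 to 85 counts per library.

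BIK, PMAIP1, BCL2L11 and BID overlapped between genotypes in A549, each with an edgeR adjusted p of 0.995. BIK measured 5.77, 2.77 and 1.24 CPM in KO 65, KO 16 and KO 66, and 1.36, 3.26 and 3.04 CPM in WT 1, 2 and 3, so its direction within the sets was not shared, at 2.09, -0.19 and -1.34 on the log2 scale. PMAIP1 measured 12.1 to 32.2 CPM in A549 KO and 13.6 to 24.9 CPM in A549 WT. BCL2L11 measured 6.62 to 13.4 CPM in KO and 6.92 to 14.8 CPM in WT, with KO 65 and WT 1 the highest of each group. BID measured 48.3 to 68.7 CPM in KO and 51.2 to 61.3 CPM in WT.

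**Figure D2:**
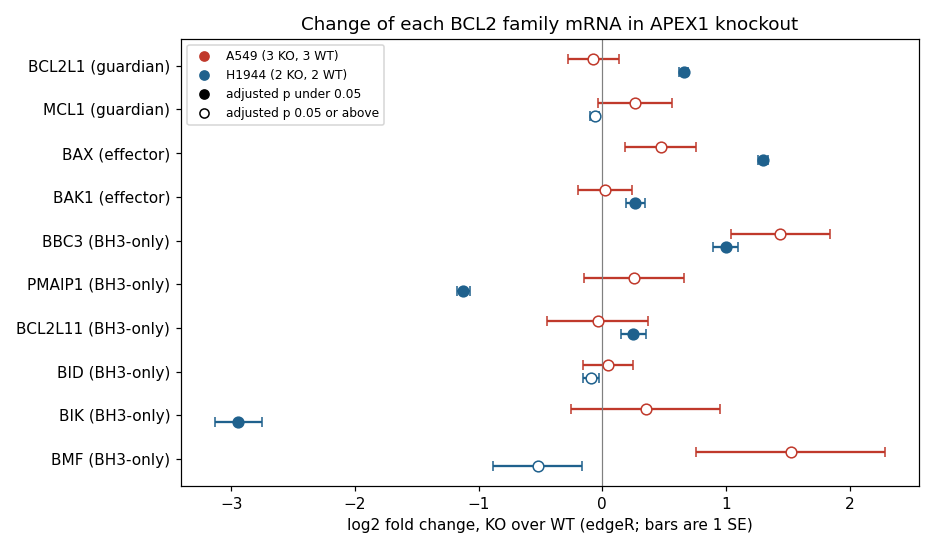
Points are edgeR log2 fold changes of KO over WT for each member in A549 (red) and H1944 (blue), with bars of 1 SE; filled points have an adjusted p under 0.05. All 7 filled points are from H1944, from BIK at -2.94 to BAX at 1.30, and the A549 bars are wider.

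By count, 5 of the 10 members were higher and 2 lower in H1944 KO by edgeR at an adjusted p under 0.05. Over all 16626 tested genes 33.2% were higher and 33.9% lower, 67.1% in all, so the share of members called is close to that of genes at large. The KO and WT libraries did not overlap for 9 of the 10 members, 5 above and 4 below WT, against 82.5% of all tested genes in H1944 (41.1% above, 41.4% below). The median log2 fold change of the members was 0.09, against -0.01 for all tested genes. When all 10 libraries shared 1 estimate of the spread, only BAX and BIK passed in H1944, and 2522 genes passed in all. In A549, edgeR called 0 of the 10 members, as did DESeq2 and limma-voom. By edgeR 1 member, BBC3, had an unadjusted p under 0.05, as did 895 of all 15806 tested A549 genes. Of all 15806 tested A549 genes 0.00633% were called. The KO and WT libraries did not overlap for 1 of the 10 members, BBC3, against 10.7% of all tested A549 genes. The members' median log2 fold change in A549 was 0.26, against 0.02 for all tested genes, and was -0.03 without KO 65. The biological coefficient of variation, edgeR's name for the spread between libraries of a group, was 39.0% in A549 and 4.74% in H1944. The same fold change is thus much harder to call in A549. The chi-square of count differences per gene was 2.95 between the H1944 KO libraries and 3.37 between the H1944 WT libraries. It was 1.90 between A549 WT 2 and WT 3, and 135 to 273 in every other pair within an A549 group. Whether this spread is biological or technical was not tested.

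**Figure D3:**
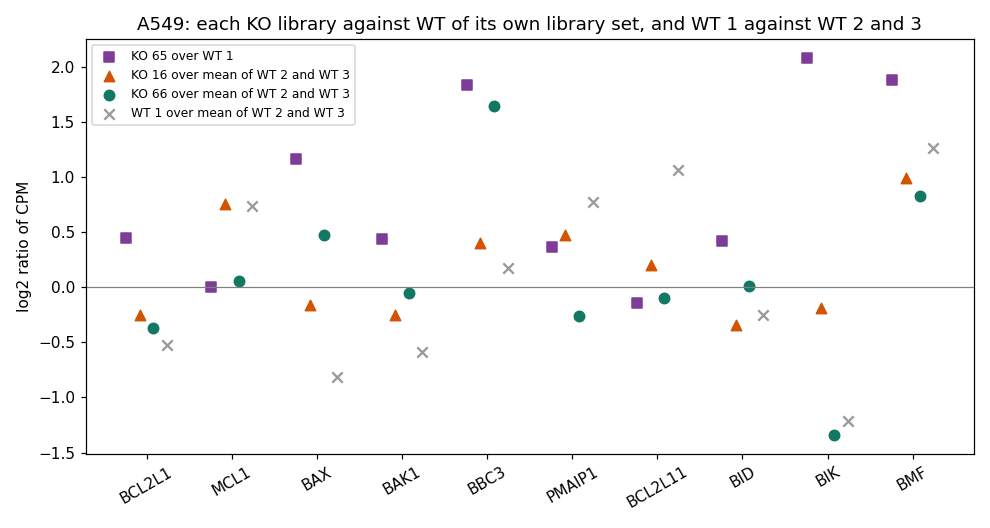
The vertical axis is the log2 ratio of CPM for each member in A549; coloured symbols set each KO library against WT libraries of its own set, and grey crosses set WT 1 against the mean of WT 2 and WT 3. BBC3 and BMF are the members with all 3 KO symbols clearly above 0, and the grey crosses, from -1.21 for BIK to 1.27 for BMF, span as wide a range as most KO symbols.

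The difference between the lines was tested in 1 fit of all 10 libraries, as the A549 change minus the H1944 change. No member passed by edgeR, where 6.95% of all 17677 tested genes did (4.1% higher, 2.85% lower), and by limma-voom none passed either. By edgeR 3 members had an unadjusted p under 0.05, as did 3863 of the 17677 tested genes. BIK came closest, with a difference of 3.26 (SE 0.85, edgeR adjusted p 0.0544), and it passed by DESeq2 (adjusted p 0.00284). BIK also passed by edgeR without A549 WT 1 (2.95, adjusted p 0.0413) and without A549 KO 66 (3.65, adjusted p 0.0143). PMAIP1 differed by 1.37 (SE 0.53, edgeR adjusted p 0.173) and BCL2L1 by -0.76 (SE 0.29, edgeR adjusted p 0.162). Without A549 WT 1, BCL2L1 and BAX passed at -0.93 and -1.09 (edgeR adjusted p 0.0131 and 0.0361), and without A549 KO 66 PMAIP1 passed at 1.65 (0.0448). All genes called were 2892 of 17596 without A549 WT 1 and 1723 of 17610 without A549 KO 66. With all libraries they were 1228 of 17677. Leaving out A549 WT 2, WT 3, KO 65 or KO 16 let no member pass. BBC3 differed by 0.43 (SE 0.55, edgeR adjusted p 0.707).

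The balance of killers and guardians was described per library, with no test, since it is a score over chosen genes. The effector score is the mean log2(CPM + 1) of BAX and BAK1 minus that of BCL2L1 and MCL1. It was -1.67 in both H1944 KO libraries, against -2.11 and -2.19 in H1944 WT, a shift of 0.48, which was 0.90 as a log2 ratio of summed CPM. The BH3-only score, formed the same way from the 6 BH3-only genes, was -4.40 in both H1944 KO libraries, against -3.62 and -3.74 in H1944 WT, a shift of -0.72, away from the BH3-only genes. The BH3-only genes did not shift as a group, since BIK and PMAIP1 were lower and BBC3 and BCL2L11 higher, and BCL2L1 in the guardian term was higher. In A549 the effector score was -1.91, -2.14 and -1.32 in KO 65, KO 16 and KO 66, and -2.48, -1.69 and -1.69 in WT 1, 2 and 3. The A549 BH3-only score was -3.86, -4.70 and -4.34 in the same KO libraries and -4.49, -4.60 and -4.61 in WT. Both scores overlapped between genotypes in A549, where KO 16 was below WT 2 and WT 3 in each.

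The ratio of BAX to BCL2L1 was the measure of balance whose KO libraries lay above WT in both lines. Its log2 value was -0.09 and -0.06 in H1944 KO, against -0.68 and -0.76 in H1944 WT. In A549 it was -0.75, -1.10 and -0.33 in KO 65, KO 16 and KO 66, against -1.47, -1.14 and -1.22 in WT 1, 2 and 3, and the KO libraries lay above WT, KO 16 by a small margin. Against its own set, KO 16 was 0.08 higher, KO 66 0.85 higher and KO 65 0.72 higher. BAX over MCL1 shifted by 1.36 in H1944 KO, while its A549 shift of 0.22 came from overlapping libraries. BAK1 over BCL2L1 shifted by -0.39 in H1944 KO, with both KO libraries below both WT libraries, and BAK1 over MCL1 by 0.33. These 4 ratios were looked at together, and that of BAX to BCL2L1 is singled out after its values were seen.

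**Figure D4:**
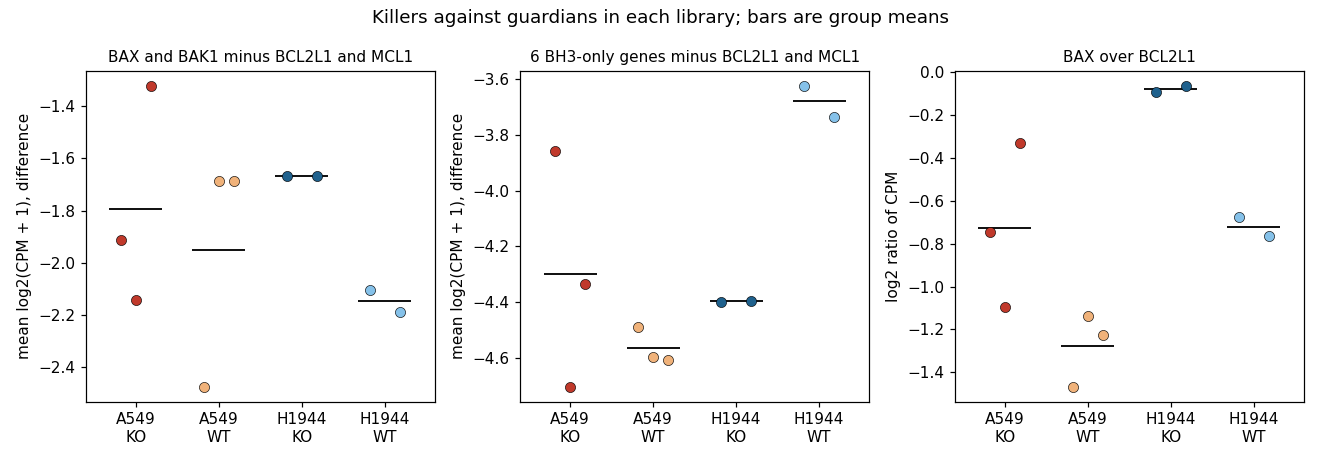
Points are libraries and bars are group means; the left and middle panels show the mean log2(CPM + 1) of killers minus that of BCL2L1 and MCL1, and the right panel the log2 ratio of BAX to BCL2L1 in CPM. The H1944 KO points are above H1944 WT on the left and right and below it in the middle, while A549 KO and WT overlap except on the right.

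Per length of exon (CPM per kilobase, union of GENCODE 29 basic exons), BAX, BCL2L1 and MCL1 were the 3 highest members in all 4 groups and BMF was the lowest. In H1944 KO the order was BAX at 181 ± 1.1, BCL2L1 at 94.6 ± 1.93 and MCL1 at 60.6 ± 1.12 CPM per kilobase (SD, n = 2). In H1944 WT it was BAX at 73.7 ± 4.23, MCL1 at 63.3 ± 2.22 and BCL2L1 at 59.9 ± 0.830 CPM per kilobase (SD, n = 2). By this measure the guardians changed places. BCL2L1 was divided by all 2859 of its exonic bases, of which 1224 are shared with ABALON. Its place beside MCL1 depends on how reads of the shared bases were counted, which is not given. PMAIP1 came next in both H1944 groups, at 18.4 ± 0.727 in KO and 40.02 ± 0.834 CPM per kilobase in WT. BIK stood just above BMF in H1944 KO at 1.35 ± 0.0215 and between BID and BAK1 in H1944 WT at 10.4 ± 0.445 CPM per kilobase. No neighbours in the order overlapped within either H1944 group. In A549 KO BAX and BCL2L1 led at 123 ± 27.1 and 98.8 ± 10.2 CPM per kilobase, and in A549 WT BCL2L1 and BAX at 104 ± 20.4 and 88.4 ± 25.7 (SD, n = 3 each), and this pair overlapped in both. BID, BBC3, BAK1, PMAIP1 and BIK in A549 KO each overlapped with the next in order. The scale was set within each line, so levels of A549 and H1944 stand side by side without a test.

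The other genes of the pathway were counted from 5 lists chosen with earlier results of these data known. Their H1944 counts stand beside 33.2% higher and 33.9% lower, 67.1% in all, among all tested genes. In H1944, 7 of 13 tested genes of the rest of the BCL2 family were higher and 5 lower in KO. BOK, an effector-like relative of BAX, measured 14.4 and 16.3 CPM in H1944 KO and 2.04 and 1.33 CPM in H1944 WT (log2 fold change 3.18, SE 0.18, edgeR adjusted p 8.45e-13). BCL2L15 measured 2.50 and 2.75 CPM in H1944 KO and 18.5 and 17.3 CPM in H1944 WT (log2 fold change -2.77, SE 0.14, edgeR adjusted p 2.04e-13). BAD, a BH3-only protein, and BNIP2 rose by 0.62 and 0.50. For the difference between lines 2 of 14 tested genes of this list passed by edgeR, beside 6.95% of all 17677 tested genes. They were BOK at -3.02 (edgeR adjusted p 0.0014) and BCL2L15 at 2.98 (edgeR adjusted p 0.00274). BOK measured 11.5 to 14.4 CPM in A549 KO and 9.86 to 12.03 CPM in A549 WT, and BCL2L15 measured 4.62 to 7.51 CPM in A549 KO and 3.79 to 5.77 CPM in A549 WT, so both overlapped between genotypes there.

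BCL2 itself, the founding guardian, was outside the rule for names and was picked with its values in view. Its level was 0.311, 0.188 and 0.844 CPM in A549 KO 65, KO 16 and KO 66 and 2.09, 1.19 and 1.27 CPM in A549 WT 1, 2 and 3, from 4 to 43 counts. All KO libraries were below WT, without passing (log2 fold change -1.74, SE 0.60, edgeR adjusted p 0.795). In H1944 BCL2 measured 3.98 and 4.63 CPM in KO and 3.23 and 2.96 CPM in WT (log2 fold change 0.47, SE 0.21, edgeR adjusted p 0.0491).

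Downstream of the mitochondrion, 4 of 16 genes of the apoptosome, caspases and inhibitor-of-apoptosis proteins were higher and 8 lower in H1944 KO, with a median log2 fold change of -0.11. CYCS, which encodes cytochrome c, measured 319 and 315 CPM in H1944 KO and 478 and 496 CPM in H1944 WT (log2 fold change -0.62, edgeR adjusted p 3.76e-13). The inhibitor-of-apoptosis genes BIRC3, BIRC5 and XIAP fell too, by 0.76, 0.63 and 0.64 on the log2 scale. In the death receptor arm 6 of 13 tested genes were higher and 5 lower. Both counts stand beside 33.2% higher and 33.9% lower among all tested H1944 genes. TNFRSF1A, the receptor for tumour necrosis factor, its adaptor TRADD and the death receptor FAS rose by 0.69, 1.24 and 0.68, and TNFRSF10D, a decoy receptor for TRAIL, fell by 1.30. These 4 had the smallest H1944 p of the list. Also called lower were TNFRSF10A at -0.53, CASP10 at -1.23, TNFSF10 at -0.91 and CFLAR at -0.29 on the log2 scale. Also called higher were FADD at 0.49, CASP8 at 0.41 and RIPK1 at 0.29.

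Of 11 transcription factors and stress regulators that activate BH3-only or effector genes, 3 were higher and 4 lower in H1944 KO. JUN, a subunit of AP-1, rose by 0.80, and EGR1 and FOXO3 fell by 0.44 and 0.42. Of 13 interaction and turnover partners, 5 were higher and 7 lower. The share among all tested H1944 genes was 33.2% higher and 33.9% lower. VDAC2, a channel of the outer membrane that binds BAK1 and BAX, measured 276 and 267 CPM in H1944 KO and 174 and 188 CPM in H1944 WT, a rise of 0.58. VDAC3, a related channel, measured 77.9 and 79.3 CPM in H1944 KO and 217 and 227 CPM in H1944 WT, 2.82-fold lower in KO (SE of the log2 fold change 0.040, edgeR adjusted p 1.47e-18). USP9X, which removes ubiquitin from MCL1, and YWHAZ, a 14-3-3 protein that binds BAD, fell by 0.62 and 0.51. In A549 no tested gene of the 5 lists passed by edgeR. An unadjusted p under 0.05 was reached by 4 in all, 1 in the rest of the family, 1 in the apoptosome list and 2 among the activators. It was reached by 895 of all 15806 tested A549 genes. TP63, a transcription factor picked with its values in view, stood at 26.5, 10.5 and 5.29 CPM in A549 KO 65, KO 16 and KO 66 and 4.76, 3.22 and 2.99 CPM in A549 WT. Its change differed between the lines by 3.82 (edgeR adjusted p 0.0447). It was the only 1 of 11 tested activators to pass there, beside 6.95% of all 17677 tested genes. In H1944 TP63 had 6 and 10 counts in KO and 28 and 17 in WT.

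**Figure D5:**
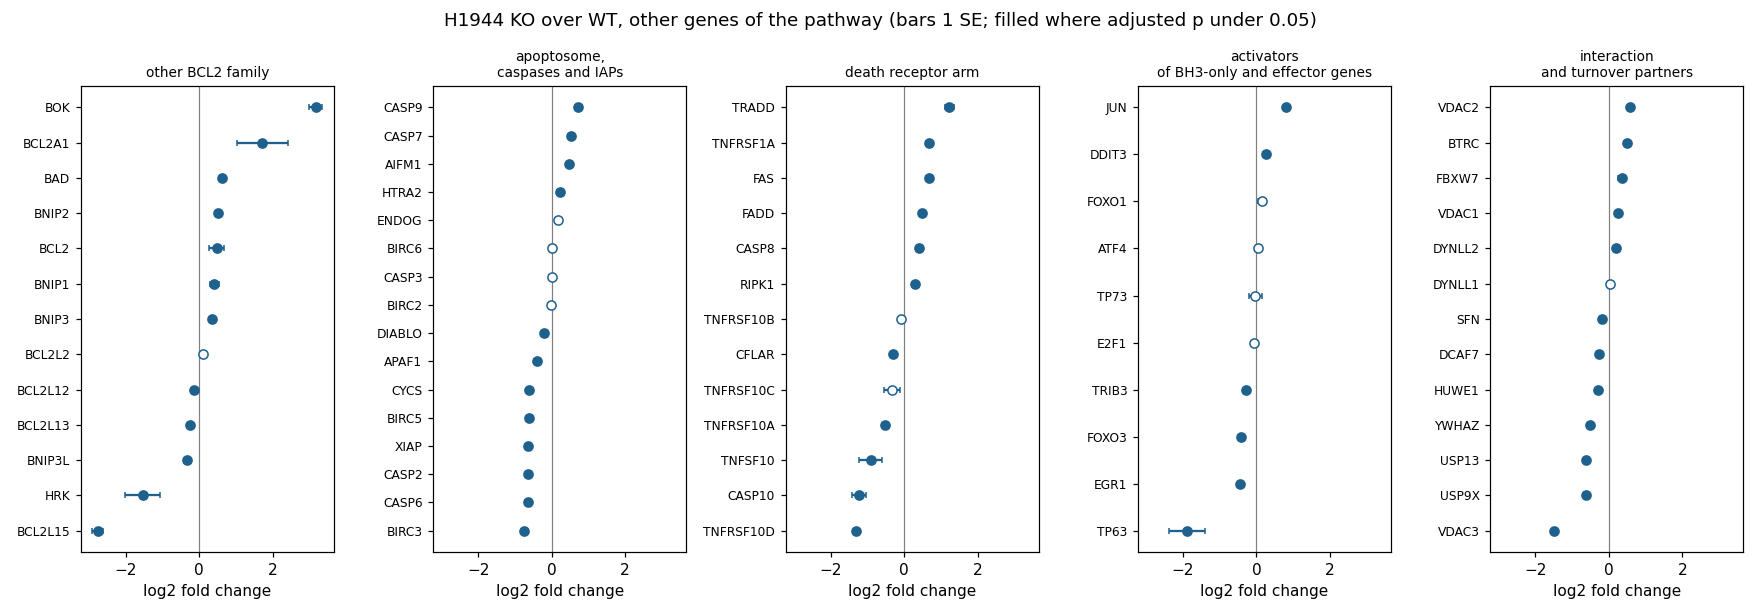
Each panel shows tested genes of 1 list of other apoptosis genes in H1944, 1 activator not drawn, with the edgeR log2 fold change of KO over WT on the horizontal axis and bars of 1 SE; filled points have an adjusted p under 0.05. Every list holds filled points on both sides of 0, from BCL2L15 at -2.77 to BOK at 3.18.

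The members were also compared with all other genes by likeness of pattern, as a description. The measure was Pearson's r of log2(CPM + 1) centred within each line over the 10 libraries, among 11932 genes tested in both lines and averaging at least 5 CPM. Centring removed the mean of each line, but genotype, depth and the A549 sets are common to all genes and enter every r value here. Of all tested H1944 genes 67.1% were called between KO and WT. For BCL2L1 the most alike were CAMK1 (r = 0.992), PDLIM7 (r = 0.981) and CPNE2 (r = 0.975). For BAX they were DMPK (r = 0.993), ISCU (r = 0.989) and SERTAD1 (r = 0.989), and for BBC3 they were RTN2 (r = 0.988), MAGED1 (r = 0.982) and TEAD2 (r = 0.979). Among the members themselves, BAX was most alike to BCL2L1 (r = 0.808) and BAK1 (r = 0.803), and BIK to PMAIP1 (r = 0.768).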

How the data were processed

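Per the labels, TRIzol served to extract the RNA, poly(A) libraries were made with a VAHTS kit, and paired reads came from a NovaSeq. The authors deposited raw counts per gene symbol, 1 table per line. Per the submitters' processing notes the tools were Trim Galore 0.5.0, HISAT2 2.1.0, featureCounts 1.6.4 and DESeq2, on hg38; strand setting, annotation and treatment of reads with several alignments are not given in the sources used here. The 3 A549 columns without a genotype were assigned to KO as the only labelled group left. No per-sample column was left out.

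Genes were kept by filterByExpr (minimum count 10), scaled by TMM and tested within each line in R 4.3.3 by edgeR 4.0.16 (quasi-likelihood F test, robust), with Benjamini-Hochberg adjustment over all tested genes and a threshold of 0.05. Each SE was obtained by dividing the size of the log2 fold change by the square root of F. The difference between lines came from 1 fit of all 10 libraries. DESeq2 1.42.0, limma 3.58.1 with voom, other scalings, no filter, a replicate block in H1944, the A549 library set and leaving out each library were alternatives. Members and lists were chosen with earlier results of these data known. Named by rule outside the members were, per list, up to 4 genes with the smallest H1944 p, and for 3 members the 3 most alike genes. BCL2 and TP63 were outside this rule and were picked with their values in view. For the death receptor arm the other called genes are named too. Gene positions and exon lengths are from GENCODE 29, upstream sequences from RefSeq (GRCh38.p14). 1 gene of the activator list is counted but not reported by name.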

Additional observations from a re-analysis of the deposited data

How the results depend on the processing

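In H1944 no member changed direction under any alternative run. The count of members called there was 7, was 2 with all 10 libraries in 1 fit, and ran from 5 to 8 when 1 library was left out; all genes called were 2522 in that joint fit and 10193 to 10675 without 1 library. With the replicate block 7 members and 11228 genes were called, and no member's call changed; equally numbered libraries share only a number, and their deviations correlated at 0.0243 across 16626 genes. A549 has no such fit, since the numbers of its KO columns match none of WT. In A549 0 members were called under every alternative run. All A549 genes called were 1, against 125 by DESeq2, 2 without the low-count filter, 2 with the library set as covariate, 16 with all 10 libraries in 1 fit, 0 in the larger set alone and 0 to 0 without 1 library. For the difference between lines, DESeq2 called 1 member and 2318 genes, against 0 and 1228, and leaving out 1 library gave 0 to 3 members and 397 to 2892 genes. In H1944 the effector score shifted by 0.90 as a log2 ratio of summed CPM, against 0.48, and the BH3-only score by -0.85 with a pseudocount of 0.1, against -0.72.

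Directions in A549 that turned were those of members with small or scattered changes. BAK1 turned to -0.017 by DESeq2 and with its size factors, -0.013 without the low-count filter, -0.010 with all 10 libraries in 1 fit and -0.20 in the larger set alone. In the larger set alone BCL2L11 was 0.011, BID -0.20 and BIK -0.70. When 1 A549 library was left out, the log2 fold change ran from -0.23 to 0.019 for BCL2L1 and from -0.15 to 0.13 for BAK1, and further ranges were -0.15 to 0.56 for PMAIP1, -0.39 to 0.41 for BCL2L11, -0.072 to 0.17 for BID and -0.35 to 0.72 for BIK. For the difference between lines the ranges that crossed 0 were -0.67 to 0.11 for BCL2L11 and -0.017 to 0.26 for BID. The cause of these changes was not tested. BMF and BIK rest on few counts per library, which limits their precision.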
